A study of Mus musculus with 11 samples.

Results

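Heart RNA of mice with a total knockout of Cd36 (Total KO) was compared with heart RNA of mice in which MHC-cre removed Cd36 from cardiomyocytes (CM KO). The members are all libraries that carry these 2 labels, 6 of the 11 libraries of the series, and every gene of the table was considered. Total KO holds the libraries numbered 5222, 5213 and 5214, called replicates 1, 2 and 3 here, and CM KO holds 4920, 4923 and 4922 in the same way. All 6 share a strain entry that names a cross of mice with a loxP-flanked Cd36. The CM KO label ties the deletion to cardiomyocytes and names no other cell type. For Total KO the labels state neither how the knockout was made nor whether a Cre was present, and age and sex are given for neither group. By their labels the groups differ in which cells lost Cd36 and in the run of label numbers. The presence of MHC-cre may differ as well, and these differences cannot be told apart. Each library came from 400 ng of total heart RNA, sequenced by strand after removal of ribosomal RNA. No label says whether the 3 libraries of a group came from separate animals, and the p-values rest on the scatter among the libraries alone, which may be technical. The comparison sets a total knockout beside a cardiomyocyte knockout, within the study's question of how Cd36 in endothelial cells affects lipid and glucose metabolism. The Control libraries are not compared here, so a difference does not show which group changed. Rises and falls below mean higher and lower in Total KO than in CM KO.

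CD36 is a membrane glycoprotein that takes up long-chain fatty acids, and in the heart it is present on capillary endothelial cells, cardiomyocytes and macrophages. Fatty acids must cross the endothelium before cardiomyocytes oxidize them in mitochondria, and a heart short of them turns to glucose, lactate, ketone bodies and branched-chain amino acids. Hearts under mechanical or metabolic stress often re-express genes of the fetal heart, such as those of the natriuretic peptides and of beta-myosin heavy chain, while fibroblasts deposit collagen and macrophages gather.

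Values are normalized read counts, and a difference is Total KO minus CM KO on the scale of log2 of the value plus 1, given ± its standard error (SE). A gene passed when its adjusted p from limma lay under 0.05. Whole reads recovered from the table came to 11157062, 15974962 and 16753994 in Total KO and to 15582950, 20105673 and 15848956 in CM KO. The first principal component held 63.4% of the variance over genes, with Total KO between -31.8 and -23.2, CM KO replicates 2 and 3 at 11.8 and 20.3, and CM KO replicate 1 at 50.9. CM KO replicate 1 thus stood apart from its own group, with a Pearson r across genes of 0.977 and 0.981 to the other two CM KO libraries against 0.991 between those. Results were recomputed with each library left out in turn, and counts from these refits are given below in a fixed order, Total KO replicates 1, 2 and 3 followed by CM KO replicates 1, 2 and 3.

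Cd36 itself did not separate the groups. Its values were 18847, 23452 and 21266 in Total KO and 15792, 21610.2 and 21363 in CM KO, and the ranges overlapped. The difference was 0.12 ± 0.16 (limma, adjusted p = 0.636), with Total KO at 108% of the CM KO mean, and it turned to -0.026 without CM KO replicate 1, to -0.15 after quantile normalization and to -0.0159 after rescaling to equal library totals. Reads of all exons and of all cells in the tissue enter this value, which therefore reports neither on the deleted part of the gene nor on the protein. The loss of Cd36 that the labels state was thus not checked by these values.

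Away from Cd36, the hearts differed widely. Of 13025 genes tested, 1969 passed (15.1%), of which 924 were higher in Total KO (7.09%) and 1045 lower (8.02%), and 4233 had an unadjusted p under 0.05. Over all genes tested the median difference was -0.01. The ranges of the 3 and 3 libraries did not overlap for 5066 genes (38.9%), so ranges that lie apart were common. The shares of 7.09% higher and 8.02% lower are the background for each list count below. With each library left out, 732, 443, 215, 1648, 2144 and 862 genes passed, so the count fell most without Total KO replicate 3, and 192 genes passed in all 6 of these refits. Rescaling to equal library totals moved the median of all genes to -0.14 and the split to 477 higher and 1665 lower, a share of 22.3% higher against 46.9% in the fit as reported. The plot of differences against level shows that the largest falls included genes of high abundance, such as Nppa, and genes of low abundance, such as Mybphl. The largest rises lay among genes of low abundance.

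**Figure D1:**
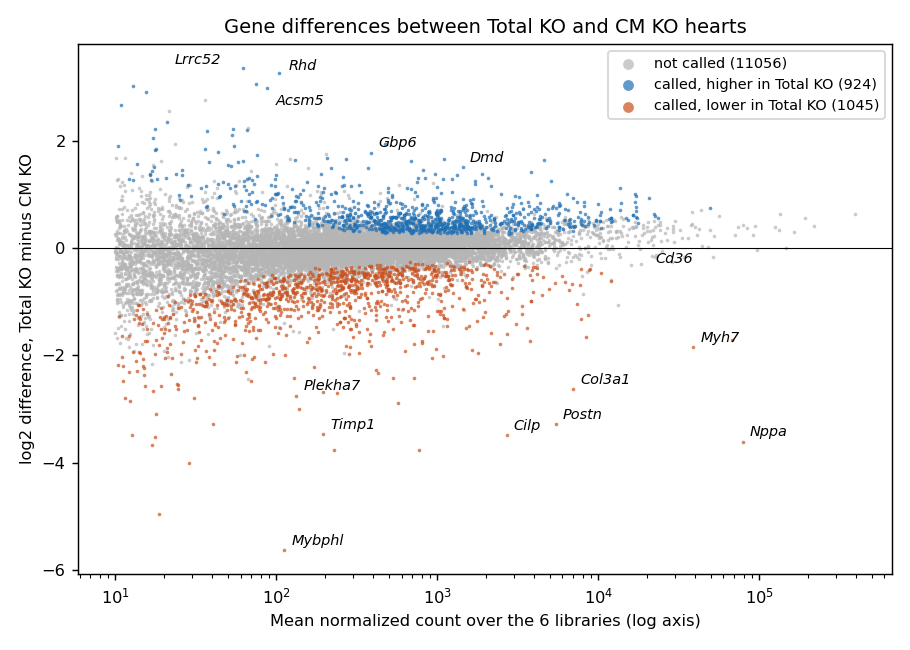
Log2 difference, Total KO minus CM KO, of each of the 13025 genes tested (vertical axis) against the mean normalized count over the 6 libraries (horizontal log axis). Grey points did not pass, blue points were higher and orange points lower in Total KO. Nppa (-3.61) and Myh7 (-1.85) lie far below 0 at high counts, Mybphl is lowest of the genes marked (-5.63), and Cd36 lies at 0.12.

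Genes of the natriuretic and fetal program of cardiomyocytes included some of the largest falls in Total KO. The upstream sequences of Nppa, Mybphl and Myh7 are shown because these 3 were lower together. The sequences are the 250 bases before the RefSeq start site on the GRCm38.p6 build, read 5′ to 3′ on the strand of the gene. Capitals mark 1 motif in each, chosen after the values were seen. Nppa, at chr4:148000472-148000721 on the plus strand, holds TATAAA, the letters of a TATA box. Mybphl, at chr3:108364661-108364910 on the plus strand, holds a GATA motif (AGATAA). Myh7, at chr14:54994627-54994876 on the minus strand, holds an M-CAT motif (GGAATG), the site of TEAD factors. The first capital lies 9, 141 and 201 bases before the start site in Nppa, Mybphl and Myh7. The Nppa match is named by its letters only.
Nppa: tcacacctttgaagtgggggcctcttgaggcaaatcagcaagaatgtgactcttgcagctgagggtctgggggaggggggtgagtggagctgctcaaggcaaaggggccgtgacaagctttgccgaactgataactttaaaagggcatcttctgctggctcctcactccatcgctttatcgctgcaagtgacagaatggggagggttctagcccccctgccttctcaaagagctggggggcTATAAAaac
Mybphl: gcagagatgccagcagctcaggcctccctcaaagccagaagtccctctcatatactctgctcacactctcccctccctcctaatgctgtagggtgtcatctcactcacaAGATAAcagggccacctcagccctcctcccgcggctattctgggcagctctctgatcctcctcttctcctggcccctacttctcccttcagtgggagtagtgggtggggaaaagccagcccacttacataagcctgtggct
Myh7: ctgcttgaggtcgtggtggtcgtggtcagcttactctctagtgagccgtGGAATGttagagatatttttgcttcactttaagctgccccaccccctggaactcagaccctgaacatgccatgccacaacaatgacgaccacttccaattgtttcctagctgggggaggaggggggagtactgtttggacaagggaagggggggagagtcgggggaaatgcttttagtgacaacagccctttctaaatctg
Motifs were searched on both strands of windows of 300 bases, from 250 before to 50 after the start site. A RefSeq window was found for 9658 of the 13025 genes, and 8.90% of these held TATAAA, 7.70% AGATAA and 14.9% GGAATG. Among the genes that were lower in Total KO the shares were 10.9%, 8.13% and 18.3%, and among those that were higher they were 9.56%, 8.84% and 15.8%. These matches describe letters in the windows and are not evidence of binding.

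Nppa, which encodes atrial natriuretic peptide, read 17338, 12343 and 6797 in Total KO and 215750.3, 105984 and 116782 in CM KO. Every CM KO library lay above every Total KO library, and the Total KO mean was 8.32% of the CM KO mean. The difference was -3.61 ± 0.37 (limma, adjusted p = 0.00288). Mybphl, a myosin-binding protein gene of atrial and conduction myocytes, read 7.64, 0.853 and 4.17 in Total KO and 267, 164 and 227 in CM KO. It was close to absent from Total KO, and its difference was -5.63 ± 0.50 (limma, adjusted p = 0.00225), or -5.01 without Total KO replicate 2. Myh7, the beta-myosin heavy chain of the fetal mouse ventricle, read 24472, 11093 and 16004 in Total KO and 81559, 55449 and 44599 in CM KO. The lowest CM KO library was above the highest Total KO library, and the difference was -1.85 ± 0.31 (limma, adjusted p = 0.012). Reads of Myh7 and of its close paralog Myh6 can be shared in counting, which leaves the split between them uncertain. Ankrd1, a stretch-responsive repeat protein that binds titin, read 24274, 36607 and 34986 in Total KO and 125914, 96306 and 91570.4 in CM KO, again with no overlap. Its difference was -1.72 ± 0.22 (limma, adjusted p = 0.00567).

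The program did not move as a whole. Of its 23 members tested, 5 were lower and 2 higher in Total KO, and the median difference was 0.10, near that of all genes (-0.03 after rescaling to library totals). In the leave-out refits 4, 4, 3, 9, 7 and 4 members passed, and DESeq2 gave 7 higher and 5 lower. The calcineurin regulator gene Rcan1 was lower, at -0.55 ± 0.14 (limma, adjusted p = 0.0331). In contrast, Nppb, which encodes the partner peptide BNP, read 7847, 10391 and 11126 in Total KO and 9794, 11869 and 11405 in CM KO, and these overlapping ranges gave -0.18 ± 0.15 (limma, adjusted p = 0.434). Acta1, the skeletal alpha-actin gene of the same program, read 11255, 30215 and 11255 in Total KO and 12882, 8661 and 10896 in CM KO and differed by 0.55 ± 0.36 (limma, adjusted p = 0.318), with Total KO replicate 2 far above the other 5 libraries. Myh6, the adult alpha-myosin heavy chain gene, read 488224, 459147 and 483182 in Total KO and 212624, 378362 and 358812 in CM KO. Its ranges did not overlap, yet the difference of 0.64 ± 0.37 did not pass (limma, adjusted p = 0.269). Fhl2, a LIM-domain protein gene (0.47, adjusted p = 0.041), and Ckm, the muscle creatine kinase gene (0.56, adjusted p = 0.0453), were higher in Total KO by limma.

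Nppa and Mybphl are also atrial markers, so the whole atrial list was read beside them. Of 15 atrial markers, 10 were tested, and 4 were lower in Total KO, which adds the transcription factor gene Tbx5 (-0.48 ± 0.09, limma, adjusted p = 0.0152) and the secreted protein gene Dkk3 (-2.22 ± 0.49, limma, adjusted p = 0.0237, -1.56 without CM KO replicate 1). The atrial light chain gene Myl4 read 20.4, 17.1 and 15.01 in Total KO and 31.6, 28.5 and 31.1 in CM KO and differed by -0.77 ± 0.23 (limma, adjusted p = 0.0545). Defining atrial markers were near 0 in both groups: Sln was 0 in every library except CM KO replicate 2 (0.648), and Bmp10 was at most 0.853 in Total KO and 1.64 in CM KO. The other atrial light chain gene, Myl7, read 7.64, 3.41 and 5.005 in Total KO and 7.71, 3.24 and 6.54 in CM KO and overlapped. The median of the list was -0.30 (-0.47 to -0.11 over the alternatives), with 7 members below 0 and 3 above. With each library left out, 3, 2, 2, 4, 4 and 4 members passed. Summed over the 14 atrial markers other than Nppa, the level was 2362 to 4501 in Total KO and 3110.1 to 3712 in CM KO, overlapping ranges. Without Mybphl and Dkk3 as well, the other 12 summed to 2300 to 4454 and 2398 to 3423. The sum therefore says little about Mybphl and Dkk3. Of the 9 genes named so far that passed, 5, 4, 3, 9, 9 and 6 passed with each library left out, and Nppa, Mybphl and Ankrd1 passed in all 6 refits. The plot of values by library shows these genes beside representatives of the groups described next.

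**Figure D2:**
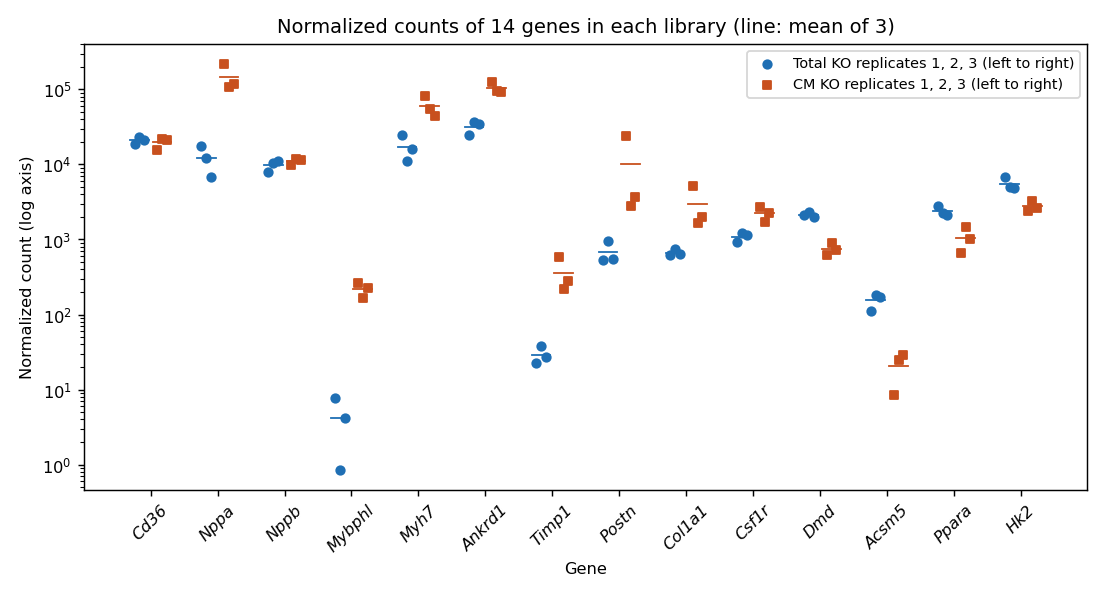
Normalized counts (vertical log axis) of 14 genes (horizontal axis) in each library, with blue circles for Total KO, orange squares for CM KO, replicates 1, 2 and 3 from left to right within a group, and a line at the mean. Cd36 and Nppb overlap between the groups, and for the other 12 genes every library of one group lies beyond every library of the other. CM KO replicate 1 is the highest library for Nppa, Postn and Timp1 and the lowest for Acsm5 and Ppara.

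Structural genes of the contractile apparatus mostly did not pass, with a few exceptions at the Z-disc. Of 30 sarcomere and Z-disc genes tested, 4 were higher and 1 lower in Total KO, beside 7.09% and 8.02% of all genes, and the median was 0.18 (-0.02 after quantile normalization). With each library left out, 2, 2, 1, 8, 4 and 4 of them passed, and DESeq2 gave 9 higher and 1 lower. Myot, which encodes the Z-disc protein myotilin, read 2969, 3038 and 2217 in Total KO and 952, 1078 and 1112 in CM KO. Total KO values were all above those of CM KO, and the difference was 1.38 ± 0.13 (limma, adjusted p = 0.0023). Csrp3, or muscle LIM protein, was higher by 0.60 ± 0.13, the myofibril assembly gene Smyd1 by 0.51 ± 0.12 and the Z-disc and intercalated disc gene Nrap by 0.63 ± 0.16, with adjusted p from limma of 0.0218, 0.0244 and 0.0321. Mybpc2, the fast skeletal isoform of myosin-binding protein C, was the member that was lower (-0.84 ± 0.15, limma, adjusted p = 0.0144).

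Outside these lists, and chosen after its values were seen, Dmd stood out among abundant genes. It encodes dystrophin, the protein that links the cytoskeleton of myocytes to the membrane. It read 2109, 2319.9 and 1963 in Total KO and 626, 910.5 and 727 in CM KO, and the Total KO mean was 282% of that of CM KO. The difference was 1.51 ± 0.14 (limma, adjusted p = 0.00225). Ctnna3, an alpha-catenin gene of intercalated discs, was higher in Total KO by 1.17 ± 0.14 (limma, adjusted p = 0.00528) and was also chosen after its values were seen. Of the 7 genes of these 2 paragraphs that passed, 4, 4, 3, 7, 6 and 6 passed with each library left out, and Myot, Dmd and Ctnna3 passed in all 6 refits.

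Of 24 calcium handling genes tested, 4 were higher and 1 lower in Total KO, beside 7.09% and 8.02% of all genes. The median was 0.31. Leaving out each library in turn left 0, 0, 0, 5, 6 and 0 that passed. After quantile normalization 0 were higher and 0 lower, after rescaling to library totals 2 and 1, and by DESeq2 8 and 1. Hrc, a calcium-binding protein of the sarcoplasmic reticulum lumen, read 22269.8, 20555 and 21735 in Total KO and 7595, 15493 and 14307 in CM KO. CM KO replicate 1 was lowest, and the difference was 0.85 ± 0.24 (limma, adjusted p = 0.0489). The luminal protein gene Srl (0.63), the junctional membrane gene Jph2 (0.45) and the cation channel gene Tmem38a (0.50) were higher with adjusted p of 0.0386, 0.0383 and 0.0317 from limma. Sypl2, which encodes the triad protein mitsugumin 29, was lower (-1.34 ± 0.37, limma, adjusted p = 0.045). The core pump, release channel and exchanger genes Atp2a2, Ryr2 and Slc8a1 did not pass.

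Ion channel genes went both ways. Among 30 tested, 7 were higher and 5 lower in Total KO, and the median was -0.05. Subunits of the transient outward potassium current were higher: Kcnd2 read 461, 349 and 362 in Total KO and 166, 253 and 219 in CM KO, without overlap. Its difference was 0.88 ± 0.17 (limma, adjusted p = 0.0175). Kcnip2, which encodes the accessory subunit KChIP2 of the same channel, read 5665, 5111 and 7108 in Total KO and 4050.1, 3854 and 4047 in CM KO and was higher by 0.57 ± 0.12 (limma, adjusted p = 0.0232). Kcnc1, a fast potassium channel gene, read 87.8, 113 and 80.9 in Total KO and 31.6, 34.97 and 22.9 in CM KO, and the difference was 1.63 ± 0.22 (limma, adjusted p = 0.00663). The silent subunit gene Kcnv2 (1.65), the background potassium channel gene Kcnk3 (0.45), the sodium channel gene Scn4a (0.82) and the chloride channel gene Clcn1 (1.91) were higher as well, with adjusted p between 0.0189 and 0.0491 by limma. Clcn1 was at 1.18 without CM KO replicate 1.

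The channel genes that were lower included carriers of repolarizing current. Kcnq1, the slow delayed rectifier, read 572, 477 and 543 in Total KO and 1215, 895 and 964 in CM KO. All 3 Total KO libraries lay below CM KO, and the difference was -0.94 ± 0.13 (limma, adjusted p = 0.0067). Kcnh2, which encodes the rapid delayed rectifier, was lower, at -0.50 ± 0.14 (limma, adjusted p = 0.0434). Gja1, which encodes connexin 43 of gap junctions, read 5124, 4166 and 5358 in Total KO and 6839, 7173 and 6952 in CM KO and was lower, at -0.53 ± 0.11 (limma, adjusted p = 0.0209). Of the 15 calcium handling and channel genes named that passed, 4, 3, 2, 12, 12 and 6 passed with each library left out, with Kcnc1 and Kcnq1 passing in all 6 refits. Channel genes as a list passed 6, 3, 2, 11, 10 and 7 times with each library left out.

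Neurohumoral signalling genes were lower in Total KO in 6 cases and higher in 1 of 22 tested, and the median was -0.34. After leaving out each library, 4, 3, 2, 9, 7 and 3 passed, and a weight per library gave 2 higher and 9 lower. Grk5, a kinase that desensitizes adrenergic and other G protein-coupled receptors, read 318, 315 and 324 in Total KO and 1288, 1148 and 909 in CM KO. The Total KO libraries were close together and all below CM KO, at a difference of -1.79 ± 0.13 (limma, adjusted p = 0.00165). Edn3, which encodes the peptide endothelin-3, read 66.2, 59.7 and 45.04 in Total KO and 710.5, 277 and 265 in CM KO, with the highest value in CM KO replicate 1. Its difference was -2.71 ± 0.35 (limma, adjusted p = 0.00585). Edn1, the gene of the main vasoconstrictor endothelin, differed less, at -0.56 ± 0.16 (limma, adjusted p = 0.0496). The angiotensin-converting enzyme gene Ace read 1065, 1316 and 1093 in Total KO and 3592, 1607 and 2183 in CM KO and was lower, at -1.01 ± 0.25 (limma, adjusted p = 0.0314). Agtr1a, the angiotensin II receptor gene, was lower, at -0.70 ± 0.12 (limma, adjusted p = 0.0142), and the adenylyl cyclase gene Adcy5 at -0.39 ± 0.08 (limma, adjusted p = 0.0225). Adra1a, an alpha-adrenergic receptor gene, was the member that was higher, by 0.81 ± 0.19 (limma, adjusted p = 0.0266). Of these 7 genes, 4, 3, 2, 6, 7 and 3 passed with each library left out, and Edn3 and Grk5 passed in all 6 refits.

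Extracellular matrix genes were lower in Total KO almost throughout. All 34 tested had differences below 0, 27 passed, all lower in Total KO, and the median was -1.81 against -0.01 for all genes. With each library left out, 11, 11, 4, 27, 30 and 22 passed, and the median lay between -2.08 and -1.21 over all alternatives, closest to 0 without CM KO replicate 1. Fibrillar collagen genes were lower: Col1a1, a chain of type I collagen, read 628, 738 and 635 in Total KO and 5181, 1672 and 1971 in CM KO. The ranges were well apart and CM KO replicate 1 was the highest library. The difference was -1.95 ± 0.36 (limma, adjusted p = 0.0152). Col3a1, the type III collagen gene, read 1488, 1929 and 1449.7 in Total KO and 24180.0, 5794 and 7087 in CM KO, with a difference of -2.63 ± 0.45 (limma, adjusted p = 0.0132), or -1.99 without CM KO replicate 1. Fbn1, which encodes fibrillin 1 of elastic microfibrils, read 1009, 1257 and 893 in Total KO and 5669, 2663 and 3139.5 in CM KO and was lower, at -1.79 ± 0.26 (limma, adjusted p = 0.00748). The fibril-associated collagen gene Col14a1 read 143, 166 and 148 in Total KO and 1505, 493 and 735 in CM KO and was lower, at -2.42 ± 0.33 (limma, adjusted p = 0.00681).

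Matricellular genes, known from active scarring, were lower as well. Postn, which encodes periostin, read 536, 946 and 542 in Total KO and 24012, 2831 and 3723 in CM KO, so that CM KO replicate 1 held several times the value of its group mates, which were themselves above Total KO. Its difference was -3.28 ± 0.69 (limma, adjusted p = 0.0209), and -2.32 without CM KO replicate 1. Cilp, a secreted antagonist of TGF-beta in cartilage and fibrotic heart, read 232, 622 and 222 in Total KO and 10971, 1777 and 2349 in CM KO. The difference was -3.49 ± 0.65 (limma, adjusted p = 0.0158), and -2.68 without CM KO replicate 1. Comp, the cartilage oligomeric matrix protein gene, differed by -3.77 ± 0.79 (limma, adjusted p = 0.0207), with -2.70 and -4.56 without CM KO replicates 1 and 2. For the collagen gene Col8a2 these values were -3.29 ± 0.65 (limma, adjusted p = 0.0186), -2.46 and -3.93. Cthrc1, a marker of activated fibroblasts, read 1.27, 0 and 0.834 in Total KO and 87.9, 9.71 and 5.72 in CM KO, at or near 0 in Total KO. It fell below the level tested without CM KO replicate 1 and differed by -3.53 ± 0.91 (limma, adjusted p = 0.0358) with all libraries and by -4.26 without CM KO replicate 3.

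Genes of matrix cross-linking and assembly were lower too. They comprised the lysyl oxidase genes Lox (-1.96 ± 0.54, -1.25 without CM KO replicate 1) and Loxl2 (-1.73 ± 0.32), the microfibril gene Mfap4 (-2.43 ± 0.43) and fibronectin, Fn1 (-1.13 ± 0.29), with adjusted p from limma of 0.0447, 0.0158, 0.0142 and 0.035. The small proteoglycan genes Dcn and Lum showed smaller differences, of -0.62 (adjusted p = 0.0462) and -0.94 (adjusted p = 0.029) by limma. Of the 15 matrix genes named, 8, 7, 2, 13, 15 and 12 passed with each library left out, and Fbn1 and Col14a1 passed in all 6 refits. Fibroblast markers moved with these genes, as described below with the summed levels, and their part in the matrix result was not tested. In bulk tissue, fewer cells of a type and less RNA per cell cannot be told apart.

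Matrix proteases and their inhibitors were lower in 10 and higher in 1 of 28 tested, with a median of -0.59, and 3, 4, 2, 8, 10 and 6 passed with each library left out. Timp1, an inhibitor of metalloproteinases that is induced in injured heart, read 22.9, 37.5 and 27.5 in Total KO and 583, 216 and 284 in CM KO. The Total KO mean was 8.12% of that of CM KO, without overlap, and the difference was -3.47 ± 0.34 (limma, adjusted p = 0.00261). Timp4, the inhibitor most typical of myocardium, went the other way: it read 1217, 927 and 1099 in Total KO and 555, 899 and 643 in CM KO and was higher by 0.65 ± 0.18 (limma, adjusted p = 0.0414). Timp2 was lower, at -1.08 ± 0.18 (limma, adjusted p = 0.0119). The metalloproteinase genes Mmp2 (-0.96), Mmp14 (-1.09) and Mmp23 (-1.84), the aggrecanase gene Adamts4 (-1.44) and Plat, the gene of tissue plasminogen activator (-1.28), were lower with adjusted p of 0.0397, 0.021, 0.00528, 0.0489 and 0.0247 by limma.

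Secreted signals of the TGF-beta, activin and Wnt families were lower in 13 of 29 tested and higher in 0, and the median was -0.63. With each library left out, 3, 4, 1, 13, 15 and 8 passed. All 3 ligand genes of TGF-beta were among them. Tgfb2 read 160.4, 289 and 284 in Total KO and 581, 453 and 549.6 in CM KO and was lower, at -1.15 ± 0.22 (limma, adjusted p = 0.017). Tgfb3 was lower, at -1.02 ± 0.28 (limma, adjusted p = 0.0415), and Tgfb1 at -0.50 ± 0.14 (limma, adjusted p = 0.0487). Ltbp2, a microfibril protein related to the binding proteins of latent TGF-beta, read 62.4, 93.8 and 53.4 in Total KO and 3444, 419 and 577 in CM KO. CM KO replicate 1 was again several times higher than its group mates. The difference was -3.77 ± 0.67 (limma, adjusted p = 0.0141), and -2.84 without CM KO replicate 1. The activin subunit gene Inhbb (-1.13) and Fst, which encodes the activin antagonist follistatin (-1.40), were both lower, with adjusted p of 0.0206 and 0.0228 by limma. Of the secreted Wnt antagonists, Sfrp1 was lower, at -1.37 ± 0.37 (limma, adjusted p = 0.0398), and Sfrp2 at -2.42 ± 0.54 (limma, adjusted p = 0.0239), the latter at -1.75 without CM KO replicate 1.

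Growth factor genes showed no common direction, with 2 higher and 4 lower of 31 tested and a median of -0.06. Refits without each library left 5, 1, 0, 4, 6 and 2 that passed, and a weight per library gave 3 higher and 9 lower. Vegfa, the main angiogenic factor made by cardiomyocytes, read 6262, 4899.9 and 4815 in Total KO and 3027, 4410.0 and 3274 in CM KO and was higher by 0.59 ± 0.16 (limma, adjusted p = 0.0417). Igf1, a growth factor gene expressed by fibroblasts and macrophages, was lower, at -1.12 ± 0.28 (limma, adjusted p = 0.0312). The binding protein gene Igfbp7 was lower, at -1.27 ± 0.33 (limma, adjusted p = 0.0379). Of the 19 protease, signal and growth factor genes named, 5, 8, 2, 14, 17 and 8 passed with each library left out, and Timp1 and Mmp23 passed in all 6 refits.

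**Figure D3:**
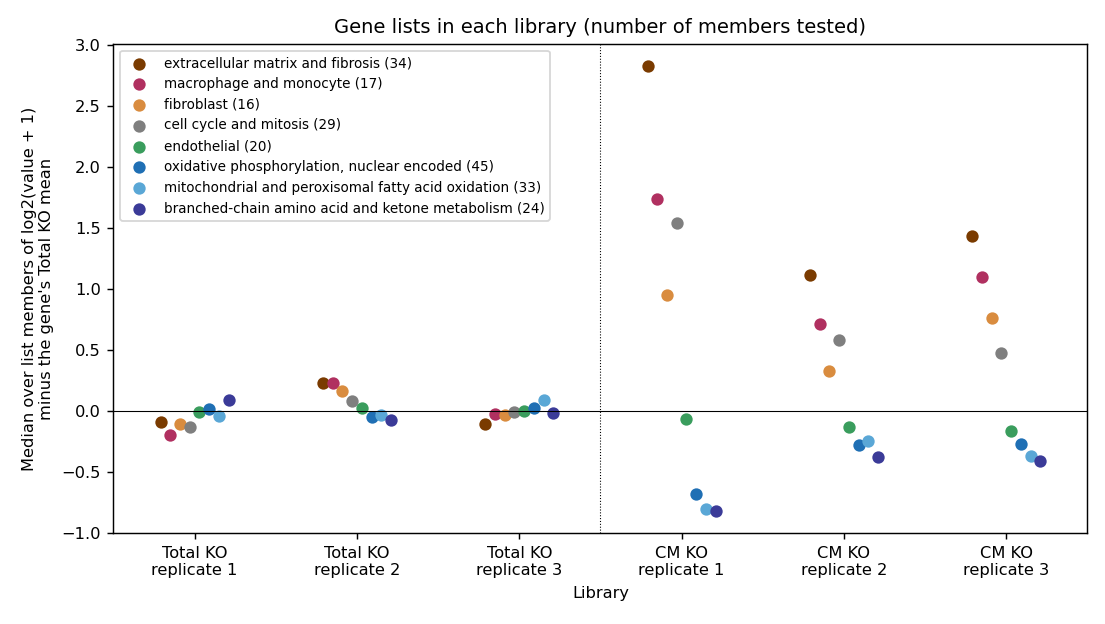
Median over the members of 8 gene lists (vertical axis) of log2(value + 1) minus the gene's Total KO mean, in each library (horizontal axis), with the number of members tested in the legend. Matrix, macrophage, fibroblast and cell cycle lists lie above 0 in all 3 CM KO libraries and highest in CM KO replicate 1, the 3 mitochondrial lists lie below 0 in all 3, and the endothelial list stays near 0.

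Markers of the cell types of the heart showed which lists moved with the matrix genes. Of 16 fibroblast markers, 10 were lower in Total KO, none was higher, and the median was -0.66. Their summed level was 44089 to 51478 in Total KO and 56674 to 74222 in CM KO, without overlap, and 1, 3, 1, 8, 10 and 4 passed with each library left out. Cd248, a surface marker of stromal fibroblasts, read 173, 205 and 174 in Total KO and 781, 438 and 517 in CM KO, and the difference was -1.61 ± 0.20 (limma, adjusted p = 0.00533). The microfibril gene Mfap5 (-2.05) and Pi16, a marker of adventitial fibroblasts (-1.499), were lower with adjusted p of 0.0177 and 0.0173 by limma. Pdgfra, the receptor that defines cardiac fibroblasts, read 913, 1064 and 877 in Total KO and 1328, 1163 and 1608 in CM KO and was lower by a smaller amount, -0.51 ± 0.13 (limma, adjusted p = 0.0335). Tcf21, the lineage factor of these cells, did not pass.

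Macrophage markers were lower in Total KO as a group. Of 17 tested, 15 were lower in Total KO and none was higher, the median was -1.18, and 6, 7, 1, 13, 16 and 8 passed with each library left out. The summed level was 5751 to 7777 in Total KO and 11058 to 20764 in CM KO, without overlap. Csf1r, the receptor on which macrophages depend, read 918, 1229 and 1136 in Total KO and 2714, 1717 and 2276 in CM KO. Every CM KO library was above Total KO, and the difference was -1.02 ± 0.17 (limma, adjusted p = 0.0124). Cd163, a scavenger receptor gene of resident macrophages, read 425, 426 and 308 in Total KO and 1151, 844 and 936 in CM KO and was lower, at -1.34 ± 0.16 (limma, adjusted p = 0.00528). Complement gene C1qa was lower, at -1.23 ± 0.22 (limma, adjusted p = 0.0144). Lower values were also found for Ccr2, the chemokine receptor of recruited monocytes (-1.61 ± 0.28), the lipid-sensing receptor gene Trem2 (-1.54 ± 0.42), the mannose receptor gene Mrc1 (-1.12 ± 0.18), the lysosomal gene Cd68 (-1.04 ± 0.25) and the hyaluronan receptor gene Lyve1 (-1.02 ± 0.27), with adjusted p from limma between 0.011 and 0.0436.

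Summed levels were also apart between the groups for endothelial, pericyte and smooth muscle, conduction system, ventricular cardiomyocyte, skeletal muscle and erythroid markers, although few single markers of these lists passed. In the endothelial list, 1 of 20 markers was higher and none lower, with a median of 0.11 (-0.03 after rescaling to library totals), and the summed level was 49913 to 55345 in Total KO and 43856 to 47834 in CM KO. The marker that passed was Gpihbp1, which holds lipoprotein lipase at the capillary wall. It read 1923, 2299 and 2297 in Total KO and 1541, 1629.9 and 1708 in CM KO and was higher by 0.41 ± 0.10 (limma, adjusted p = 0.0264). Pecam1, a pan-endothelial adhesion gene, read 3101, 3404 and 3051 in Total KO and 3023, 2959 and 2919 in CM KO and differed by 0.10 ± 0.08 (limma, adjusted p = 0.419), a value that turned to -0.035 after quantile normalization and to -0.037 after rescaling to library totals. Of 14 pericyte and smooth muscle markers, 1 was higher and 2 were lower, at a median of 0.02 (-0.12 after rescaling to library totals), and the sum was 17149 to 18340.1 in Total KO and 19644 to 20809.8 in CM KO. Acta2, the smooth muscle actin gene that myofibroblasts also express, read 853, 1292 and 1269 in Total KO and 2925, 2572 and 2704 in CM KO, and the difference was -1.29 ± 0.15 (limma, adjusted p = 0.00528). The pericyte proteoglycan gene Cspg4 was lower, at -0.70 ± 0.11 (limma, adjusted p = 0.00961), and Vtn, which encodes vitronectin, higher by 0.51 ± 0.12 (limma, adjusted p = 0.031). Other contractile smooth muscle markers, such as Myh11, Tagln and Cnn1, did not pass.

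Of 15 ventricular cardiomyocyte markers tested, 2 were higher (Ckm and Kcnip2) and none was lower, at a median of 0.42. Their sum was 1550730.0 to 1674370.0 in Total KO and 941266 to 1343570.0 in CM KO, without overlap and lowest in CM KO replicate 1. Refits without each library left 0, 1, 0, 6, 2 and 0 of them that passed, and DESeq2 gave 9 higher and 1 lower. Conduction system markers summed to 2026 to 2148 in Total KO and 2243 to 2492 in CM KO, and 1 of 7 tested was lower, at a median of 0.02. Smoc2 belongs to both the conduction and the fibroblast list, and its part in the sum was not tested. Skeletal muscle markers summed to 39234 to 56884 in Total KO and 28044 to 31089 in CM KO, and 1 of 4 tested, Ckm, was higher. This list shares Ckm with the ventricular list and Acta1 with the fetal program. Without Acta1 the sum was 26669 to 28674 in Total KO and 15162 to 21842 in CM KO. The skeletal myosin genes Myh1, Myh2 and Myh4 read at most 5.09 in any library, so the sum does not show skeletal muscle. Erythroid markers were low, at sums of 43.4 to 72.6 in Total KO and 13.1 to 40.9 in CM KO, and the single one tested did not pass. Mesothelial, adipocyte and Schwann cell or neuron markers had at most 2 members that passed and sums that overlapped, as did the sums of lymphocyte markers, of which 1 was tested and did not pass. Of the 16 marker genes named that passed, 9, 9, 3, 14, 16 and 10 passed with each library left out, and Cd248, Cd163 and Acta2 passed in all 6 refits.

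Inflammatory genes were lower in Total KO in 11 cases and higher in 1 of 29 tested, with a median of -0.54, and 7, 4, 1, 10, 11 and 5 passed with each library left out. Quantile normalization gave 6 lower and 1 higher. Chemokines that attract monocytes were prominent. Ccl8 read 19.1, 28.1 and 19.2 in Total KO and 103, 75.8 and 96.5 in CM KO, wholly apart, and its difference was -2.02 ± 0.22 (limma, adjusted p = 0.00408). Ccl2, the chief ligand of the receptor encoded by Ccr2, read 15.3, 28.99 and 15.8 in Total KO and 43.2, 51.8 and 49.1 in CM KO and was lower, at -1.28 ± 0.28 (limma, adjusted p = 0.0231). Ccl6 (-1.51, adjusted p = 0.0135) and Ccl9 (-1.27, adjusted p = 0.0333) were lower by limma as well. Il33, an alarmin of stromal cells, was lower, at -0.95 ± 0.26 (limma, adjusted p = 0.0419), and the gene of its receptor, Il1rl1, at -1.43 ± 0.32 (limma, adjusted p = 0.025). Acute-phase and feedback genes were lower too, namely Lcn2, which encodes lipocalin 2 (-1.29 ± 0.34, limma, adjusted p = 0.0389), the cytokine signalling inhibitor gene Socs3 (-0.94 ± 0.24, limma, adjusted p = 0.035) and the protease inhibitor gene Serpina3n (-1.58 ± 0.44, limma, adjusted p = 0.0444, -0.98 without CM KO replicate 1). Serpina3n belongs to a cluster of close copies whose reads can be shared in counting. Macrophage markers moved with these genes, and their part in the result was not tested.

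Il15, a cytokine abundant in muscle, was the exception. It read 181, 373 and 382 in Total KO and 46.3, 115 and 145 in CM KO and was higher in Total KO by 1.68 ± 0.43 (limma, adjusted p = 0.0347), with the lowest value in CM KO replicate 1. Interferon-stimulated and antigen presentation genes were near the background, with 1 higher and 5 lower of 36 tested and a median of -0.07, which turned to 0.13 without CM KO replicate 1. Without each library 5, 5, 1, 9, 7 and 5 of them passed, and a weight per library gave 4 higher and 6 lower. The ones that were lower were largely class II genes: Cd74, the invariant chain, read 1119, 1161 and 1122 in Total KO and 1578, 1617 and 2000.3 in CM KO and was lower, at -0.60 ± 0.10 (limma, adjusted p = 0.0127), and H2-Ab1 was lower, at -0.67 ± 0.11 (limma, adjusted p = 0.0122). Ifit2, an interferon-induced gene, was lower, at -0.72 ± 0.14 (limma, adjusted p = 0.018). Gbp6, an interferon-inducible GTPase gene with close paralogs, read 715, 677 and 415 in Total KO and 194, 149 and 169 in CM KO. All 3 Total KO libraries were above CM KO, at a difference of 1.78 ± 0.20 (limma, adjusted p = 0.00478). Of the 14 genes of these 2 paragraphs, 9, 8, 2, 12, 12 and 7 passed with each library left out, and Ccl8 and Gbp6 passed in all 6 refits.

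Cell cycle genes were lower in Total KO in 6 and higher in 0 of 29 tested, with 25 below 0 and a median of -0.78. Of the list, 1, 1, 0, 4, 8 and 4 passed with each library left out, and 10 were lower by DESeq2 and 3 with only genes of a mean of 50 or more tested. Top2a, the topoisomerase of dividing cells, read 8.91, 12.8 and 17.5 in Total KO and 114, 44.03 and 31.9 in CM KO. Total KO lay below CM KO throughout, and CM KO replicate 1 was highest. The difference was -2.03 ± 0.46 (limma, adjusted p = 0.0249). The proliferation marker gene Mki67 read 38.2, 38.4 and 43.4 in Total KO and 167, 85.5 and 70.3 in CM KO and was lower, at -1.31 ± 0.30 (limma, adjusted p = 0.0251). The mitotic genes Kif11 (-1.54) and Cdc20 (-1.01), the replication gene Mcm6 (-0.59) and the cyclin gene Ccnd1 (-0.58) were lower with adjusted p of 0.0244, 0.044, 0.031 and 0.0159 by limma. Of these 6 genes, 1, 1, 0, 4, 5 and 4 passed with each library left out, and none passed in all 6 refits.

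Genes of fatty acid oxidation were higher in Total KO in many cases, by modest amounts. Of 33 tested, 14 were higher and 1 lower, 31 lay above 0, and the median was 0.50. With each library left out, 3, 1, 0, 16, 16 and 3 passed, the lowest counts being those without a Total KO library or CM KO replicate 3. After quantile normalization 5 were higher and 1 lower, at a median of 0.29, and after rescaling to library totals 8 and 2. Ventricular cardiomyocyte markers, with a median of 0.42 and sums that were apart, lay in the same direction, and their part in the lipid results was not tested. Hadh, which carries out a dehydrogenation step of beta-oxidation, read 12072, 12251 and 13652 in Total KO and 5237, 8467 and 8217 in CM KO. Total KO was above CM KO throughout, with CM KO replicate 1 lowest, and the difference was 0.82 ± 0.18 (limma, adjusted p = 0.0234). Acadvl, the very long-chain acyl-CoA dehydrogenase gene, read 21353, 19950.1 and 23463 in Total KO and 9344, 15182 and 14312 in CM KO and was higher by 0.77 ± 0.19 (limma, adjusted p = 0.0301). Acad11, an acyl-CoA dehydrogenase of very long chains, was higher by 0.84 ± 0.15 (limma, adjusted p = 0.0151). Carnitine shuttle genes were higher too: Cpt1b, the muscle form of the entry enzyme (0.57, adjusted p = 0.0351), Cpt2 (0.54, adjusted p = 0.0319) and the carrier gene Slc25a20 (0.50, adjusted p = 0.045), by limma. Acadm, the medium-chain dehydrogenase gene, was higher by 0.61 ± 0.17 (limma, adjusted p = 0.047). The peroxisomal transporter gene Abcd2 was the member that was lower (-0.59 ± 0.13, limma, adjusted p = 0.0241).

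Regulators of these genes included several that were higher. Ppara, the nuclear receptor that drives fatty acid oxidation genes, read 2802, 2218 and 2139 in Total KO and 662, 1464 and 1028 in CM KO. The ranges were apart and CM KO replicate 1 was lowest, and the difference was 1.25 ± 0.25 (limma, adjusted p = 0.0189). Ppargc1a, the coactivator PGC-1 alpha, read 3543, 2848 and 2406 in Total KO and 819, 1878 and 1412 in CM KO and was higher by 1.16 ± 0.27 (limma, adjusted p = 0.0277). The nuclear receptor genes Esrrg (0.44) and Rxrg (0.44) and the mitochondrial transcription factor gene Tfam (0.38) were higher with adjusted p of 0.049, 0.0314 and 0.0325 by limma. Ucp2, an uncoupling protein gene that immune cells also express, was lower, at -0.96 ± 0.16 (limma, adjusted p = 0.0115), and the lipid droplet gene Cidea at -0.47 ± 0.10 (limma, adjusted p = 0.0221). In all, 5 of 22 regulators and targets were higher and 2 lower, at a median of 0.26. Their leave-out counts were 2, 0, 0, 5, 8 and 4, and rescaling to library totals left 2 higher and 2 lower.

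Pdk4, Angptl4, Ucp3 and Plin2, from the fixed set of marker genes, did not pass. Pdk4, the kinase that restrains pyruvate oxidation during fasting, read 10175, 46934 and 49344 in Total KO and 25392, 30452 and 43207 in CM KO. Total KO replicate 1 was the lowest of the 6 libraries, the ranges overlapped, and the difference was -0.17 ± 0.55 (limma, adjusted p = 0.862), which turned to 0.58 without Total KO replicate 1. Angptl4, an inhibitor of lipoprotein lipase, showed the same library low, at 304, 1824 and 1813 in Total KO and 1251, 967 and 1545 in CM KO. Its difference was -0.30 ± 0.60 (limma, adjusted p = 0.774), and 0.56 without Total KO replicate 1. Ucp3, a mitochondrial carrier gene, read 542, 2008 and 2157 in Total KO and 1038, 1691 and 2107 in CM KO and differed by -0.22 ± 0.49 (limma, adjusted p = 0.796), or 0.43 without Total KO replicate 1. The droplet coat gene Plin2 read 1200.4, 3024 and 2522 in Total KO and 1803, 1607 and 1924 in CM KO and differed by 0.24 ± 0.29 (limma, adjusted p = 0.61).

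Genes of fatty acid uptake passed in few cases: 2 of 24 were higher and 2 lower, at a median of 0.18. Leave-out refits gave 3, 2, 0, 5, 5 and 2 that passed, and DESeq2 6 higher and 2 lower. Apln, which encodes the vascular peptide apelin, read 101, 92.1 and 108 in Total KO and 33.2, 49.9 and 40.9 in CM KO and was higher by 1.27 ± 0.19 (limma, adjusted p = 0.00846). Lrp1, a lipoprotein receptor gene, was among the lower ones, at -0.87 ± 0.15 (limma, adjusted p = 0.0135). Lpl, the lipase that frees fatty acids from lipoproteins, read 167077, 153839.5 and 162562 in Total KO and 75853, 123179.5 and 121091 in CM KO, and although the ranges were apart the difference of 0.63 ± 0.26 did not pass (limma, adjusted p = 0.132). Fabp3, the fatty acid-binding protein of cardiomyocytes, behaved alike at 0.36 ± 0.13 (limma, adjusted p = 0.0926).

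Triglyceride genes were higher in 5 and lower in 1 of 20 tested, at a median of 0.31. Leaving out each library left 3, 1, 1, 5, 7 and 2 that passed, and 2 were higher both after quantile normalization and after rescaling to library totals. Dgat2, which completes triglyceride synthesis, read 7956, 8732 and 8823 in Total KO and 3455, 4599.7 and 4752 in CM KO. Total KO values were nearly the same in the 3 libraries and all above CM KO, and the difference was 1.01 ± 0.13 (limma, adjusted p = 0.00595). The phosphatidate phosphatase gene Lpin1 was higher by 0.61 ± 0.11 (limma, adjusted p = 0.0154) and the droplet-forming gene Fitm1 by 0.65 ± 0.18 (limma, adjusted p = 0.045). Pnpla3, a lipase-family gene induced with lipid synthesis, was lower, at -1.32 ± 0.33 (limma, adjusted p = 0.0317). Genes of sterol and fatty acid synthesis were lower in 5 and higher in 1 of 24, at a median of -0.17, and 3, 1, 0, 5, 5 and 2 passed with each library left out. Lower members were the desaturase genes Scd1 (-0.93, adjusted p = 0.0152) and Fads1 (-0.60, adjusted p = 0.0235) and the fatty acid synthase gene Fasn (-0.56, adjusted p = 0.0491), by limma. Fdft1, the squalene synthase gene, was the member that was higher (0.96 ± 0.19, limma, adjusted p = 0.0174). Of the 25 lipid genes named that passed, 9, 4, 1, 22, 23 and 12 passed with each library left out, and Dgat2 passed in all 6 refits.

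Of 30 genes of glucose uptake and glycolysis tested, 6 were higher and 1 lower, at a median of 0.12 (-0.02 after rescaling to library totals), and 4, 3, 1, 7, 7 and 5 passed with each library left out. DESeq2 gave 11 higher and 1 lower. Slc2a4, which encodes the insulin-responsive transporter GLUT4, read 10255, 9679.6 and 10340.0 in Total KO and 5652, 7008 and 6911 in CM KO. The ranges were apart, and the difference was 0.64 ± 0.11 (limma, adjusted p = 0.0132). Slc2a1, the gene of the basal transporter GLUT1, read 490.1, 428 and 525 in Total KO and 389.6, 311 and 332 in CM KO and was higher by 0.48 ± 0.12 (limma, adjusted p = 0.0317). Slc2a12, another transporter gene, was higher by 1.23 ± 0.24 (limma, adjusted p = 0.0175). Tbc1d4, whose product releases GLUT4 vesicles when phosphorylated, read 2141, 1890.2 and 2137 in Total KO and 889, 1193 and 1271 in CM KO and was higher by 0.89 ± 0.13 (limma, adjusted p = 0.00926). Hexokinase genes moved in opposite directions. Hk2, the insulin-responsive form, read 6856, 4929.8 and 4816 in Total KO and 2415, 3272 and 2624 in CM KO and was higher by 0.99 ± 0.16 (limma, adjusted p = 0.0111), while Hk1 was lower, at -0.37 ± 0.09 (limma, adjusted p = 0.0317). Ldhb, the lactate dehydrogenase of oxidative muscle, was higher by 0.70 ± 0.16 (limma, adjusted p = 0.0268). The glycolytic enzyme genes Pfkm, Aldoa, Gapdh and Pkm did not pass.

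Genes of mitochondrial fuel entry were higher in Total KO in many cases. Of 31 genes of pyruvate dehydrogenase and the TCA cycle, 17 were higher and 1 lower, against 7.09% and 8.02% of all genes, and the median was 0.48. After leaving out each library, 1, 0, 0, 20, 16 and 6 passed. Quantile normalization left 8 higher and 0 lower, at a median of 0.28, rescaling to library totals 12 and 1, and DESeq2 gave 26 and 1. Pdp2, the phosphatase that activates pyruvate dehydrogenase, read 381, 465 and 494 in Total KO and 132, 251 and 229.8 in CM KO. The CM KO libraries were all lower, and the difference was 1.17 ± 0.23 (limma, adjusted p = 0.0176). Among the kinases that inhibit the same enzyme, Pdk1 (0.39, adjusted p = 0.023) and Pdk2 (0.48, adjusted p = 0.0397) were higher and Pdk3 was lower (-0.94, adjusted p = 0.025) by limma. Pdhb, a subunit of the dehydrogenase, was higher by 0.62 ± 0.13 (limma, adjusted p = 0.0203). In the cycle itself, Suclg1 read 6333, 6498 and 6943 in Total KO and 2834, 4520.1 and 4329 in CM KO, and the difference was 0.79 ± 0.17 (limma, adjusted p = 0.0215). Ogdh (0.76) and Idh3a (0.53), subunits of the 2-oxoglutarate and isocitrate dehydrogenases, were higher with adjusted p of 0.0441 and 0.0431 by limma.

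Nuclear genes of oxidative phosphorylation all lay above 0. Of 45 tested, 12 passed, all higher in Total KO, and the median was 0.41. With each library left out, 1, 0, 0, 25, 13 and 4 passed, and the median lay between 0.22 and 0.47 over all alternatives. The count was 3 after quantile normalization, 7 after rescaling to library totals, 29 with a weight per library and 34 by DESeq2. Cox6a2, the heart and muscle isoform of a cytochrome c oxidase subunit, read 23707, 21387 and 22734 in Total KO and 8029.9, 12809.6 and 13526 in CM KO and was higher by 1.02 ± 0.19 (limma, adjusted p = 0.0166). Cox7a1, another muscle isoform of that complex, was higher by 0.86 ± 0.19 (limma, adjusted p = 0.0244). The complex I subunit gene Ndufs7 (0.52, adjusted p = 0.0247) and the complex III subunit gene Uqcrc2 (0.57, adjusted p = 0.0414) were higher by less, by limma.

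Branched-chain amino acid and ketone genes were higher in 13 of 24 tested and lower in 0, with the highest median of the pathway lists, 0.51. Leaving out each library in turn left 3, 4, 2, 15, 18 and 8 that passed. Bdh1, which interconverts the ketone bodies in mitochondria, read 6177, 5198 and 5312 in Total KO and 1559.9, 2415 and 2370.0 in CM KO. The Total KO mean was 263% of that of CM KO, without overlap, and the difference was 1.42 ± 0.17 (limma, adjusted p = 0.00528). All 3 subunit genes of the branched-chain ketoacid dehydrogenase core listed were higher: Dbt read 1946, 1867 and 1788 in Total KO and 783, 1166 and 1076 in CM KO and differed by 0.91 ± 0.14 (limma, adjusted p = 0.00989). Bckdha was higher by 0.75 ± 0.17 (limma, adjusted p = 0.0266) and Bckdhb by 0.81 ± 0.17 (limma, adjusted p = 0.0215). Ppm1k, the phosphatase that activates this complex, was higher by 0.66 ± 0.14 (limma, adjusted p = 0.0207). Acat1, a thiolase of ketone and isoleucine breakdown, was higher by 0.68 ± 0.19 (limma, adjusted p = 0.0418). Of the 25 genes of glucose, mitochondrial and amino acid metabolism named that passed, 7, 5, 3, 25, 22 and 15 passed with each library left out, and Hk2, Bdh1 and Dbt passed in all 6 refits. Ventricular cardiomyocyte markers had a median of 0.42 in the same direction, and their part in these results was not tested.

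**Figure D4:**
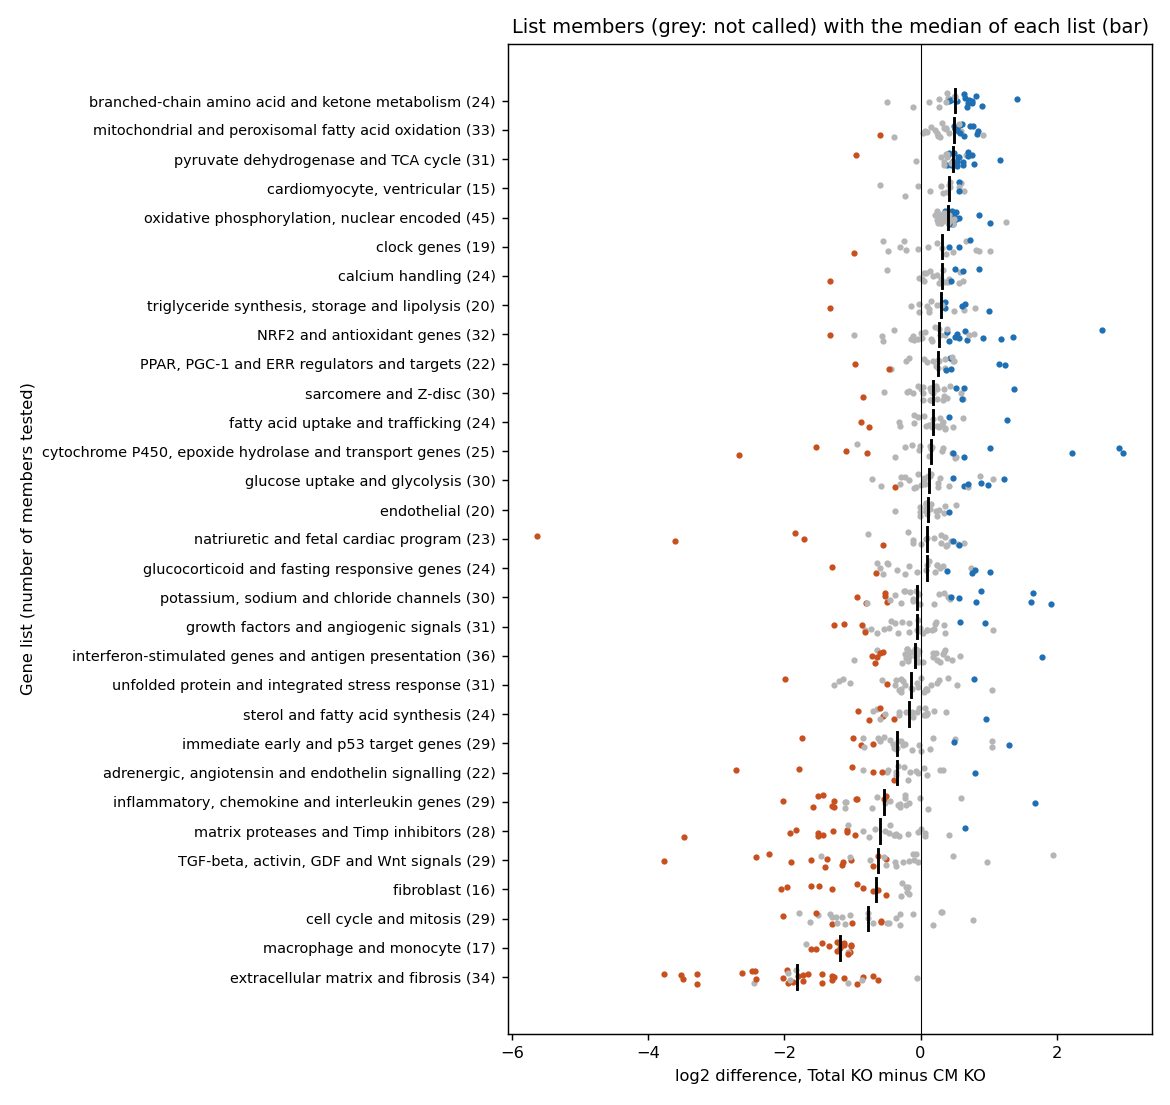
Log2 difference, Total KO minus CM KO (horizontal axis), of the members of 31 gene lists (vertical axis, with the number tested; the height of points within a list is random). Blue members were higher, orange lower and grey did not pass, and a bar marks the median. Medians run from -1.81 for extracellular matrix to 0.51 for branched-chain amino acid and ketone metabolism.

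Antioxidant genes included many that were higher. Of 32 targets of NRF2 and related genes, 11 were higher and 1 lower, at a median of 0.28, and 3, 2, 2, 13, 11 and 6 passed with each library left out. Rescaling to library totals gave 6 higher and 2 lower. Nfe2l2, the gene of NRF2 itself, was higher by 0.53 ± 0.15 (limma, adjusted p = 0.0456). Gsta4, a glutathione transferase that clears lipid aldehydes, read 1960.4, 1815 and 1907 in Total KO and 652, 717 and 858 in CM KO. The groups were far apart, and the difference was 1.36 ± 0.11 (limma, adjusted p = 0.00165). Nqo1, a classical NRF2 target, read 2277, 1908 and 2322 in Total KO and 997, 1269 and 1189.9 in CM KO and was higher by 0.91 ± 0.12 (limma, adjusted p = 0.00567). Gsta1 was low in all libraries (20.4, 16.2 and 21.7 in Total KO and 1.54, 3.89 and 1.64 in CM KO) and higher by 2.66 ± 0.40 (limma, adjusted p = 0.00926), though its reads can be shared with close paralogs. The glutathione synthesis gene Gclm (0.57), Srxn1, which encodes sulfiredoxin (0.50), and the mitochondrial defence genes Sod2 (0.68) and Prdx3 (0.65) were higher with adjusted p of 0.0192, 0.035, 0.0241 and 0.0293 by limma. Gpx3, a secreted glutathione peroxidase gene, read 4164, 4100.2 and 4063 in Total KO and 19189.6, 6519.8 and 8709.5 in CM KO, highest in CM KO replicate 1, and was lower, at -1.32 ± 0.33 (limma, adjusted p = 0.0317).

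Stress response genes of the endoplasmic reticulum and the integrated stress response stayed near background, with 1 higher and 2 lower of 31, at a median of -0.14. The leave-out counts were 5, 2, 1, 3, 4 and 3, and rescaling to library totals gave 1 higher and 8 lower. Herpud1, a component of protein degradation at the reticulum, read 6919, 7847 and 7018 in Total KO and 4574, 4205 and 3858 in CM KO and was higher by 0.79 ± 0.10 (limma, adjusted p = 0.00567). Mthfd2, the mitochondrial folate enzyme gene induced by ATF4, read 30.6, 24.7 and 16.7 in Total KO and 153, 63.5 and 89.1 in CM KO and was lower, at -1.99 ± 0.34 (limma, adjusted p = 0.0127). The chaperone gene Pdia4 was lower, at -0.49 ± 0.10 (limma, adjusted p = 0.0194). Glucocorticoid and fasting genes split, with 4 higher and 2 lower of 24 and a median of 0.09 (-0.11 without Total KO replicate 1 and -0.05 after rescaling to library totals). Of these, 3, 0, 0, 5, 6 and 1 passed with each library left out, and 1 was higher and 2 lower after that rescaling. Fkbp5, a sensitive glucocorticoid target, read 1179, 1149 and 1118 in Total KO and 2254, 1533 and 1702 in CM KO and was lower, at -0.65 ± 0.13 (limma, adjusted p = 0.0198). Pik3r1, the regulatory subunit gene of PI 3-kinase, was higher by 1.02 ± 0.23 (limma, adjusted p = 0.026) and Gadd45a by 0.76 ± 0.18 (limma, adjusted p = 0.0297).

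Among 19 clock genes, 3 were higher, Hlf (0.72) and Tef (0.57) among them, and Npas2 (-0.97) was lower, with adjusted p of 0.0496, 0.0281 and 0.0438 by limma. Their leave-out counts were 2, 1, 0, 3, 5 and 1, and DESeq2 gave 6 higher and 1 lower. The time of day of tissue collection is not in the labels. Of 29 immediate early and p53 target genes, 2 were higher and 4 lower, at a median of -0.34. Without each library 5, 2, 1, 6, 7 and 3 passed, and rescaling to library totals gave 2 higher and 8 lower. Egr2 read 12.7, 11.9 and 9.18 in Total KO and 56.3, 39.5 and 28.6 in CM KO and was lower, at -1.75 ± 0.30 (limma, adjusted p = 0.0132). Junb was lower, at -0.87 ± 0.16 (limma, adjusted p = 0.0162), whereas the orphan receptor gene Nr4a3 was higher by 1.30 ± 0.28 (limma, adjusted p = 0.0214). The p53 target genes Phlda3 and Sesn1 went opposite ways, at -0.996 ± 0.21 (limma, adjusted p = 0.0214) and 0.49 ± 0.12 (limma, adjusted p = 0.0275). Of the 23 stress, hormone and clock genes named, 7, 7, 4, 21, 22 and 13 passed with each library left out, and Gsta4, Nqo1 and Herpud1 passed in all 6 refits.

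The largest rises in Total KO lay outside the lists for the most part, in genes of low level. Lrrc52, which encodes a leucine-rich repeat subunit of potassium channels, read 146, 105 and 88.4 in Total KO and 3.86, 16.8 and 13.9 in CM KO, and the difference was 3.36 ± 0.46 (limma, adjusted p = 0.00678). Rhd, an Rh family gene, read 206, 174 and 184 in Total KO and 8.49, 25.3 and 29.4 in CM KO and was higher by 3.26 ± 0.39 (limma, adjusted p = 0.00528). Acsm5, a mitochondrial medium-chain acyl-CoA synthetase gene, read 111, 179.9 and 174 in Total KO and 8.49, 24.6 and 28.6 in CM KO. All 3 Total KO libraries were above all of CM KO, at 2.98 ± 0.41 (limma, adjusted p = 0.0069). Tmem150c, a membrane protein gene, differed by 3.06 ± 0.48 (limma, adjusted p = 0.0105), and by 2.41 without CM KO replicate 1. Dct, known from melanin synthesis, read 132, 116 and 75.1 in Total KO and 23.9, 31.7 and 13.9 in CM KO and was higher by 2.20 ± 0.32 (limma, adjusted p = 0.00835). Gnmt, a methyltransferase that uses S-adenosylmethionine, read 80.2, 80.1 and 100.1 in Total KO and 16.2, 19.4 and 22.9 in CM KO and was higher by 2.10 ± 0.21 (limma, adjusted p = 0.00261). Lgi1, a secreted leucine-rich protein gene, differed by 2.19 ± 0.54 (limma, adjusted p = 0.0311), and by 1.49 without CM KO replicate 1.

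Solute and metabolic genes among the rises included Aqp4, a water channel gene (2.92 ± 0.52, limma, adjusted p = 0.014), Cdo1, which oxidizes cysteine (1.03 ± 0.21, limma, adjusted p = 0.0201), and Slc40a1, the iron exporter ferroportin (0.63 ± 0.12, limma, adjusted p = 0.0176). Aqp4 was low in every library, at 35.6, 28.1 and 20.02 in Total KO and 0.771, 5.83 and 3.27 in CM KO. Of 25 genes of the list of cytochrome P450, epoxide hydrolase and transport genes, 6 were higher and 4 lower, at a median of 0.15, and 7, 3, 2, 9, 10 and 6 passed with each library left out. The list was assembled with earlier results of these libraries known.

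The largest falls outside the groups above included Plekha7, an adherens junction gene, which read 39.5, 23.9 and 39.2 in Total KO and 261, 226 and 209 in CM KO. The groups were far apart, and the difference was -2.76 ± 0.21 (limma, adjusted p = 0.00165). Abhd1, a hydrolase-family gene, was low in all libraries and lower in Total KO at -2.80 ± 0.33 (limma, adjusted p = 0.00528). Angptl7, a secreted angiopoietin-like gene, read 112, 107 and 84.2 in Total KO and 2162, 286 and 667 in CM KO. It differed by -2.88 ± 0.59 (limma, adjusted p = 0.0197), and by -2.11 and -3.57 without CM KO replicates 1 and 2. Cyp2b10, a cytochrome P450 gene with close paralogs, differed by -2.68 ± 0.68 (limma, adjusted p = 0.0349), and by -1.73 without CM KO replicate 1. Gatm, the first enzyme of creatine synthesis, read 31.8, 40.1 and 29.2 in Total KO and 144, 80.9 and 82.6 in CM KO and was lower, at -1.54 ± 0.25 (limma, adjusted p = 0.0115). Of the 15 genes of these 3 paragraphs, 11, 9, 8, 15, 15 and 14 passed with each library left out, and Lrrc52, Rhd, Acsm5, Dct, Gnmt, Plekha7 and Abhd1 passed in all 6 refits.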

How the data were processed

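Heart RNA of 6 mouse libraries, 3 per group, was compared. The submitters' processing notes name the mm10 build, TopHat2 without a version, HTSeq 0.8.0 and a DESeq2 listed as 3.5; counting mode, strand setting and annotation are not given in the sources used here, so reads of overlapping or antisense genes cannot be told apart. The deposited signal values are read counts per gene that the authors scaled by a single factor in each library. Dividing by the smallest step of a library returned whole reads, to within 0.05, for all 257620 values, and the count tests used these. They came to between 11157062 and 20105673 per library, which limits precision for genes of few reads. The table held 23420 genes, of which 5101 stood at 0 in all 6 libraries.

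Genes with a mean of at least 10 over the 6 libraries were fitted as log2(value + 1) with limma 3.58.1 (R 4.3.3), a trended prior variance and Benjamini-Hochberg adjustment over all genes, with no covariate. The sign and size of low genes depend on the value of 1 added. Lists were described by counts and medians, with no test. Members and lists were chosen with earlier results of these data known. The rule for named genes takes Cd36, the 15 genes with the largest positive and the 15 with the largest negative difference among those that passed (ranges apart, the higher group averaging 50 or more, predicted genes passed over), list members that passed, the 3 of lowest p in each list, and a fixed set of marker genes (Col1a1, Postn, Timp1, Nppa, Nppb, Myh6, Myh7, Acta1, Lpl, Fabp3, Plin2, Angptl4, Pdk4, Ucp3, Slc2a1, Slc2a4 and Fkbp5), not all of which are described. Genes named outside it are Dmd, Ctnna3 and those of the closing observations, chosen after their values were seen, and single genes that did not pass, given as context. Some genes that the rule takes are not reported here.

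The fit was repeated with 0.5 or 5 added, without the filter or with it at 50, after rescaling by upper quartile, by quantiles or to equal library totals, over all 11 libraries, with library weights, with a robust prior, by edgeR 4.0.16 (quasi-likelihood) and DESeq2 1.42.0 on the whole reads, and without each library. The steps were tested on simulated data.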

Additional observations from a re-analysis of the deposited data

How the results depend on the processing

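No paired analysis was possible because the labels tie no Total KO library to a CM KO library. Against 1969 genes that passed (924 higher, 1045 lower), a weight per library gave 3180 (1498 and 1682). Rescaling to library totals gave 2142, split into 477 and 1665. The other alternatives that kept all 6 libraries gave 1604 (quantile normalization) to 2378 (DESeq2), and the fit to all 11 libraries gave 2128, of which 1743 were shared. Leaving out a library took the count from 215 (without Total KO replicate 3) to 2144 (without CM KO replicate 2), with 91 to 999 higher and 124 to 1145 lower. The count over list members, 273, ran from 30 to 288 in this way. The refits hold 5 libraries, and any further cause of the lost calls was not tested.

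Among the genes named in the text, signs reversed only for genes that had not passed. The signs of single genes not named were not compared over the alternatives. Cd36 (0.12) turned to -0.15 after quantile normalization, to -0.0159 after library-total rescaling and to -0.026 without CM KO replicate 1, with 0.20 as the highest value on leaving out a library. Pecam1 (0.10) turned to -0.035 and -0.037 under the same 2 rescalings. Angptl4 (-0.30) turned to 0.082 with edgeR and 0.071 with DESeq2, and ran from -0.73 to 0.56 on leaving out a library. Pdk4 (-0.17) turned to 0.11 with both tools and ran from -0.56 to 0.58. Ucp3 (-0.22) ran from -0.57 to 0.43 and Plin2 (0.24) from -0.027 to 0.64. Pdk4 and Ucp3 also turned, to 0.044 and 0.0051, without CM KO replicate 3. The cause was not tested.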

Other observations

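Several genes were close to absent from the hearts of one group, and they were chosen here after their values were seen. Sertm1, a membrane protein gene, read 2.55, 1.71 and 0.834 in Total KO and 35.5, 33.7 and 27.8 in CM KO, and its difference was -3.67 ± 0.37 (limma, adjusted p = 0.00288). Cxcl13, a chemokine gene that attracts B cells, read 2.55, 1.71 and 0 in Total KO and 30.9, 14.9 and 26.2 in CM KO, with a difference of -3.495 ± 0.56 (limma, adjusted p = 0.0105). The predicted gene Gm14085 read 0, 0.853 and 0 in Total KO and 39.3, 39.5 and 32.7 in CM KO, which is 1 read in all of Total KO, so its size of difference depends on the value added before the logarithm. Hebp2, a heme-binding protein gene, read 5.09, 4.26 and 0.834 in Total KO and 34.7, 31.7 and 30.3 in CM KO and differed by -3.09 ± 0.47 (limma, adjusted p = 0.00957). Slitrk4, a neuronal membrane protein gene, read 5.09, 3.41 and 3.34 in Total KO and 36.3, 31.7 and 23.7 in CM KO and differed by -2.67 ± 0.32 (limma, adjusted p = 0.00528). In the other direction, Bex1 read 38.2, 25.6 and 25.9 in Total KO and 3.86, 6.48 and 6.54 in CM KO and was higher by 2.22 ± 0.33 (limma, adjusted p = 0.00835). These levels are low, and apart from Cxcl13 the genes kept an adjusted p under 0.05 in all 6 refits that leave out a library.

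More abundant genes that passed in every refit included some of transport, heme synthesis and glycogen, present in both groups. Slc38a1, a glutamine transporter gene, read 207, 139 and 92.6 in Total KO and 629, 784 and 711 in CM KO and was lower in Total KO, at -2.34 ± 0.25 (limma, adjusted p = 0.00345). Slc46a3, a lysosomal transporter gene, read 303, 327 and 339 in Total KO and 110.3, 114 and 119 in CM KO and was higher by 1.49 ± 0.11 (limma, adjusted p = 0.00165). Alad, an early enzyme of heme synthesis, read 1297, 1672 and 2043 in Total KO and 381, 604 and 600.3 in CM KO and was higher by 1.67 ± 0.21 (limma, adjusted p = 0.00567). Gys1, the muscle glycogen synthase gene, read 4312, 4033 and 4268 in Total KO and 1733, 2409 and 2450.1 in CM KO and was higher by 0.95 ± 0.13 (limma, adjusted p = 0.0071). Ugp2, which makes the UDP-glucose that glycogen synthase uses, read 8926, 10581 and 8120.4 in Total KO and 4231, 5144 and 5071 in CM KO and was higher by 0.93 ± 0.13 (limma, adjusted p = 0.0067). Ppp1r3g, a glycogen-targeting subunit gene of protein phosphatase 1, read 71.3, 84.4 and 78.4 in Total KO and 23.1, 31.7 and 24.5 in CM KO and was higher by 1.53 ± 0.19 (limma, adjusted p = 0.00567). All 6 genes passed in every one of the 6 refits that leave out a library, as did 192 genes in all. They were picked from that set after their values were seen and no list of glycogen genes was tested.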
